A study of Mus musculus with 7 samples.

Results

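The hippocampal nuclei described here are leptomeningeal fibroblast nuclei, the connective tissue cells of the thin membranes that cover the brain surface and follow its vessels inwards. They were selected on 6 genes: the unique transcripts of *Bnc2*, *Ranbp3l*, *Slc6a20a*, *Cped1*, *Col1a2* and *Dcn* together had to make up at least 0.5% of a nucleus' transcripts, with at least 3 of the 6 genes seen. This rule found 246 nuclei among the 47621 with more than 300 and fewer than 50000 transcripts and more than 400 genes, or 0.517%. These 6 genes chose the nuclei, and all other genes were read in the same nuclei. Levels against other nuclei are therefore given below as a description, without a test. The other nuclei are pooled, and 30692 of them were neuronal by their own markers.

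The nuclei came from 24 frozen hippocampus samples of perfused mice, 1 mouse per first-round barcoding well, with 6 wells in each of 4 groups (3 females, F1 to F3, and 3 males, M1 to M3). WT mice (offspring of the same C57BL6/J cross without the transgene) on MilliQ water formed WT-veh, and WT mice given the C5aR1 antagonist PMX205 in that water formed WT-PMX. Arc-veh and Arc-PMX were the corresponding hemizygous Arctic48 mice, which carry human APP with the Indiana, Swedish and Arctic mutations. PMX205 was at 20 µg/ml for 12 weeks by the labels, and all groups were collected at 10 months of age. The study's own text differs on the duration. It logs the weights of these mice over 10 weeks of treatment and gives 12 weeks to a younger cohort. The study's reporting summary states that a sample of the WT group was left out because gene expression showed it to be Arctic, without naming its well. All 24 wells were therefore used here, and none was relabelled. Over all nuclei, *App* (whose reads may include the human transgene's) had 454 to 585 CPM (counts scaled to a common total, so that samples of different depth can be compared) in the WT wells and 578 to 919 CPM in the Arc wells, so 1 Arc well lay within the WT range. The 7 sublibraries, each a mix of all wells, gave 6466 to 7456 of these nuclei each.

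Leptomeningeal fibroblasts build the pial basement membrane and the collagen of the arachnoid and pia, carry solutes and amino acids between cerebrospinal fluid and tissue, and make retinoic acid, prostaglandin D synthase and bone morphogenetic proteins. They continue along penetrating vessels as perivascular fibroblasts. A dissected hippocampus holds them only at its surface, its fissure and its larger vessels.

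Markers outside the rule were set beside the label. A further 8 fibroblast genes (*Col1a1*, *Col3a1*, *Lum*, *Pdgfra*, *Fbln1*, *Col6a3*, *Igf2* and *Slc6a13*) were all at least 10 times higher in these nuclei, with a summed level of 2065 CPM against 26.5 CPM in all other nuclei. *Slc6a13*, a GABA and taurine transporter of the meninges, was seen in 55.7% of them (95% Clopper-Pearson interval 49.2 to 62.0%, counting error only), although they had a median of 1276.5 transcripts, and in 0.101% of 30692 neuronal nuclei, whose median was 7594. *Aldh1a2*, which makes retinoic acid, was seen in 38.2% against 0.137%. Several markers that define neighbouring cell types were at 0 in all 246 nuclei: *Acta2* and *Cnn1* of smooth muscle, *Cldn5* of endothelium, *Otx2* and *Folr1* of choroid plexus, *Foxj1* of ependyma, *Aqp4* of astrocytes and *Olig2* of oligodendrocyte precursors. Other members of those lists were read. Smooth muscle markers summed to 7.61 against 4.87 CPM with 1 of 4 more than 10 times higher, and ependymal markers to 71.0 against 99.7 CPM. Oligodendrocyte precursor markers summed to 383 against 1376 CPM, with *Pdgfra*, also among the 8 fibroblast genes, having the most counts. All 6 pericyte markers were more than 2 times and 5 of them more than 10 times higher than in other nuclei (1268 against 63.0 CPM in sum), and 8 of the 246 nuclei also met the rule for pericytes. Choroid plexus markers summed to 548 against 414 CPM, astrocyte markers to 1177 against 1401 CPM with 1 of 6 (*Gjb6*) more than 10 times higher, endothelial markers to 175 against 174 CPM and neuronal markers to 2544 against 21025 CPM. Each of the 6 sub-groups described below carried some markers of other cells. In all, 17 nuclei had more transcripts of neuronal, astrocyte, oligodendrocyte or microglial markers than of the 6 rule genes, and these are called mixed nuclei below.

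The rule's threshold fell within a gradual range. The 6 rule genes made up 0.502% to 2.97% of transcripts (median 1.20%), and 17 nuclei lay below 0.6%. The 19 nuclei between 0.4% and 0.5% that were left out had 945 summed CPM of the 8 other fibroblast genes, compared with 1629 CPM in the 17 nuclei just inside and 2065 CPM in all 246. A further 149 nuclei reached 0.5% but showed fewer than 3 of the genes. Of the 246, 113 showed 3 rule genes, 92 showed 4, 38 showed 5 and 3 showed all 6. Over 1% mitochondrial transcripts were found in 10 of the 246. A Scrublet doublet score above 0.25 was found in 4 of the 246 and in 1282 of all 47621 nuclei. No barcode was shared by a pair of these nuclei. Of their barcodes 42 also occurred in another of the 7 sublibraries, as did those of 9320 of all 47621 nuclei.

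The nuclei were unevenly spread over the mice. In WT-veh the wells held 1, 5 and 5 (F1 to F3) and 43, 18 and 1 (M1 to M3), and in WT-PMX 4, 3 and 1 and then 2, 19 and 11. In Arc-veh they held 3, 30 and 1 and then 26, 3 and 24, and in Arc-PMX 17, 10 and 0 and then 10, 5 and 4. Every group thus had wells with many and wells with almost none, and the 4 fullest wells alone held 123 of the 246 nuclei. The well without any, Arc-PMX F3, had 1558 nuclei, so that a count of 0 allows a share of up to 0.193% (3 counts). As shares of a well's nuclei, the values were 0.492% ± 0.563 (SD, n = 6) in WT-veh, 0.297% ± 0.261 in WT-PMX, 0.807% ± 0.777 in Arc-veh and 0.387% ± 0.262 in Arc-PMX (n = 6 each).

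**Figure D1:**
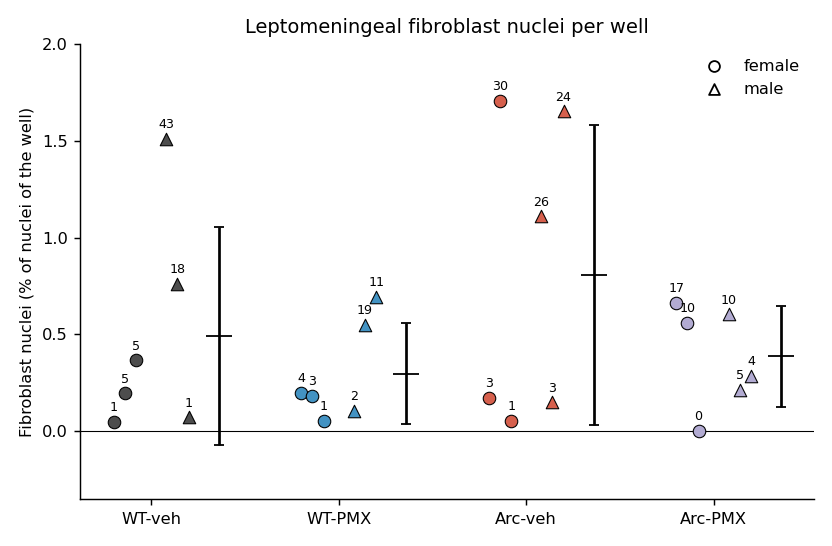
Share of leptomeningeal fibroblast nuclei among all nuclei of each well (percent, y axis) by group, 1 point per mouse with the number of nuclei beside it and the mean ± SD to the right. The groups overlap, from 0.0496% to 1.51% in WT-veh, 0.0541% to 0.693% in WT-PMX, 0.0526% to 1.70% in Arc-veh and 0% to 0.661% in Arc-PMX.

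None of the differences in mean share between groups had an adjusted p under 0.05 in a permutation test over wells. Arc-veh lay 0.315 percentage points above WT-veh (two-sided exact permutation test over wells, p = 0.420, adjusted p = 0.504 over 6 comparisons), and Arc-PMX minus Arc-veh was -0.419 points (exact p = 0.245, adjusted p = 0.489). WT-PMX minus WT-veh was -0.195 points (exact p = 0.509), a direction that rested on WT-veh M1, since without that well the difference was 0.00833 points. Over both genotypes, mice on PMX205 had 0.342% and mice on water 0.649% (permutation test, n = 12 each, p = 0.148, adjusted p = 0.489). Females had 0.349% and males 0.642% (permutation test, n = 12 each, p = 0.172, adjusted p = 0.489). Fewer fibroblasts in a tissue piece and fewer of their nuclei passing the filters cannot be told apart in these shares.

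How much the share moved from well to well was compared with nuclei of other cell types chosen by parallel rules. Its coefficient of variation was 1.05, compared with 0.621 for 361 pericyte nuclei, 0.386 for 953 endothelial and 1.19 for 690 choroid plexus epithelium nuclei. These values include counting error, which weighs more on rarer nuclei. Chi-square per degree of freedom, which sets the spread against counting error, was 10.1 for fibroblast nuclei. It was 4.86 for pericyte, 5.25 for endothelial, 7.76 for astrocyte, 15.99 for oligodendrocyte, 25.8 for microglia and 39.5 for choroid plexus nuclei. This measure rises with the number of nuclei, so the cell types cannot be ranked by it. The cause of the spread was not tested. Fibroblast and endothelial shares were correlated over the 24 wells (Pearson r = 0.556, permutation p = 0.00457, adjusted p = 0.0137 over 3 relations; Spearman rho = 0.474, p = 0.0202, adjusted p = 0.0606). Without WT-veh F3 and Arc-veh M3, the wells farthest from the median endothelial share, r was 0.481 (permutation p = 0.0229), and within single groups r ran from 0.114 to 0.941. The relation to the choroid plexus share was r = 0.348 (permutation p = 0.0943, adjusted p = 0.141; rho = 0.312, p = 0.137), and 0.465 (permutation p = 0.0269) without WT-veh M2 and Arc-veh F3. That to the pericyte share was r = 0.280 (permutation p = 0.187; rho = 0.343, p = 0.101), and 0.310 (permutation p = 0.159) without Arc-PMX M3 and WT-veh M3. These shares have the same denominator.

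Over all 14813 genes with a count in the fibroblast nuclei, 1538 (10.4%) had a level more than 10 times that of other nuclei, and 617 (4.17%) were higher in each of the 10 wells that held at least 10 fibroblast nuclei. The 20 genes with the largest ratio among those of at least 100 CPM are given here by name, 4 of the 6 rule genes among them. *Slc6a13* had 951 CPM against 0.692 CPM in other nuclei, *Slc6a12*, a betaine and GABA transporter, 327 against 0.233 CPM, and *Slc22a6*, an organic anion transporter, 195 against 0.115 CPM. *Slc13a3*, which carries dicarboxylates, had 786 against 2.83 CPM, and the paired efflux carriers *Slc47a1* and *Slc47a2* had 251 and 101 CPM, with 93 of the 99 counts of the first and 39 of the 40 of the second in the 21 nuclei of sub-group 5 below. Of the rule genes, *Ranbp3l* had 4323 against 8.77 CPM and *Slc6a20a*, a proline transporter, 3042 against 9.60 CPM. *Bnc2*, a zinc finger gene, had 1210 against 3.08 CPM, with 268 of its 477 counts in the 21 nuclei of sub-group 5 below. *Col1a2* had 436 against 1.04 CPM. Some of these genes were also read in the cell types nearest by, since *Slc6a20a* had 907 CPM in pericyte and 504 CPM in choroid plexus nuclei, and *Anpep*, an aminopeptidase gene, 91.0 CPM in pericyte nuclei against 195 CPM in fibroblast nuclei. The others were *Aldh1a2*, *Lama1*, *Aox3*, an aldehyde oxidase gene, the transcription factor genes *Prdm6*, *Foxd1*, *Tbx18* and *Alx4*, and the less known *Gm30613* and *9130410C08Rik*.

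**Figure D2:**
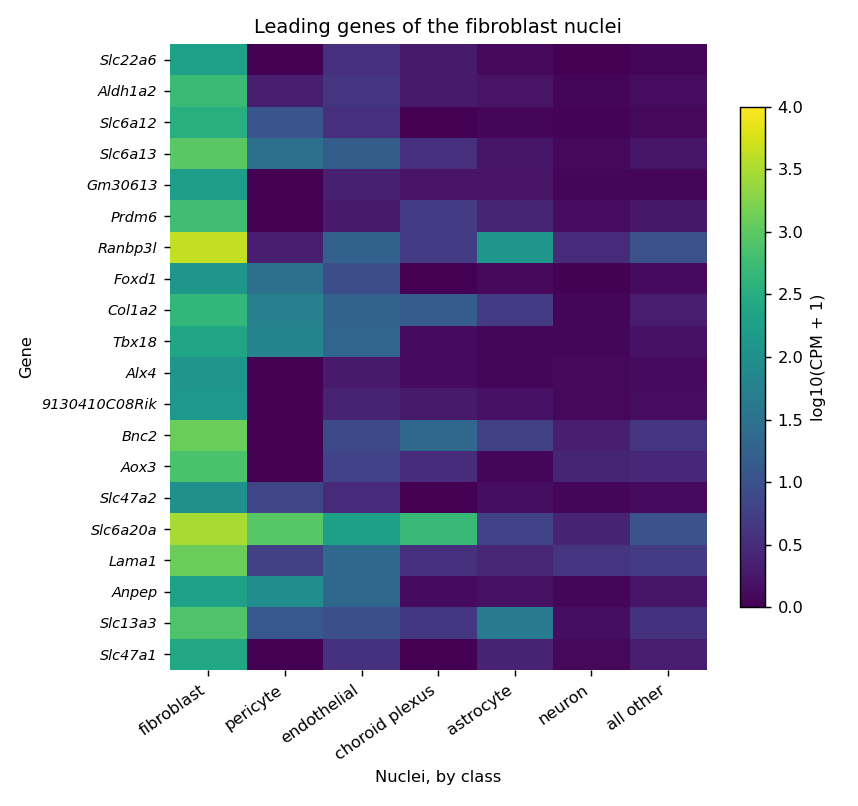
Colour gives the level (log10 of CPM + 1) of the 20 genes with the largest ratio to other nuclei among genes of at least 100 CPM, in rows. Columns are leptomeningeal fibroblast, pericyte, endothelial, choroid plexus, astrocyte, neuron and all other nuclei. *Slc22a6*, *Aldh1a2*, *Slc6a12* and *Slc6a13* lie below 1 CPM in all other nuclei and between 195 and 951 CPM in the fibroblast nuclei.

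The leading genes differed in how evenly the wells carried them. *Slc6a13* had 490 and 781 CPM in the WT-veh wells M1 and M2, 756 and 1344 in WT-PMX M2 and M3, 1540, 594 and 1451 in Arc-veh F2, M1 and M3, and 590, 1101 and 1471 in Arc-PMX F1, F2 and M1. Its groups overlapped, and its lowest well was still far above other nuclei. *Lama1*, the laminin chain of the pial basement membrane, had 1157 and 1659 CPM in WT-veh, 1565 and 2016 in WT-PMX, 1090, 891 and 1191 in Arc-veh and 964, 826 and 1691 in Arc-PMX, in the same order of wells. *Aldh1a2* ranged more widely, with 314 and 634 CPM in WT-veh, 809 and 168 in WT-PMX, 995, 357 and 870 in Arc-veh and 177, 275 and 735 in Arc-PMX. *Slc47a1* stood apart, because Arc-PMX F1 had 1023 CPM and the 9 other wells between 0 and 386 CPM.

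**Figure D3:**
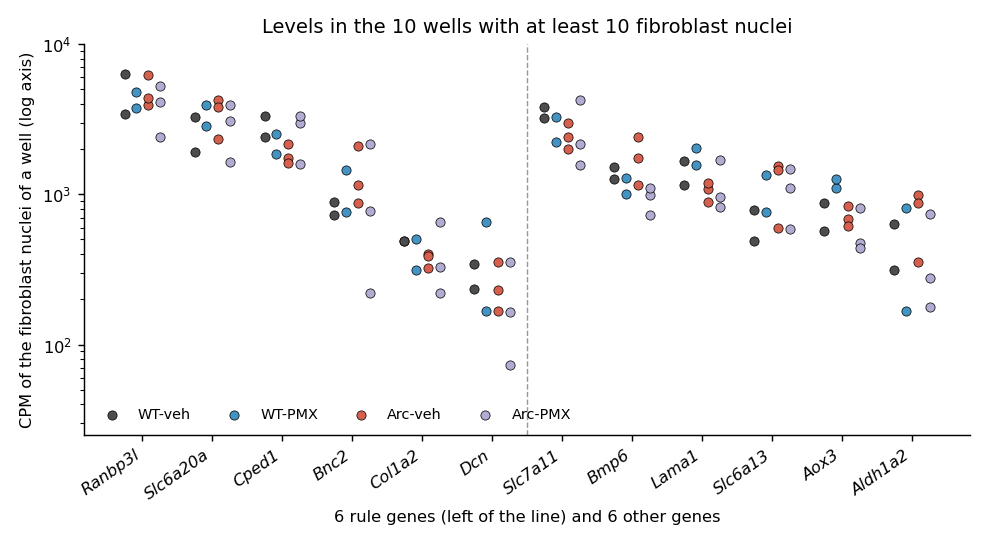
Levels (CPM, log axis) of the 6 rule genes, left of the dashed line, and of 6 other genes in the 10 wells with at least 10 leptomeningeal fibroblast nuclei, 1 point per well, coloured by group. *Slc6a13* stays between 490 and 1540 CPM, and for it and for *Aldh1a2* the wells of all 4 groups overlap.

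Of 23 basement membrane genes, 22 were detected and 12 were more than 10 times higher than in other nuclei. Among all 14813 genes with a count, 1538 (10.4%) passed this ratio. The numbers for this and the lists below are to be read beside that share, although the lists also hold genes at 0. Counts include introns, so that long genes gather more of them, and levels of different genes are comparable only per length. *Lama2* (1334 against 73.7 CPM) and *Lama1* (1233 against 3.97 CPM) had the most counts of the list, and per kilobase of gene the order was *Lama1* (9.83 CPM), *Lamb2* (6.58 CPM), *Lamc3* (5.14 CPM) and *Lamc1* (4.39 CPM), with *Lama2* at 2.09 CPM. The network-forming collagen IV chains *Col4a5* and *Col4a6* had 609 and 596 CPM. Of 10 fibrillar collagen genes 5 passed 10-fold, the rule gene *Col1a2* among them, with *Col1a2*, *Col5a1* (340 CPM), *Col5a2* (203 CPM) and *Col1a1* (173 CPM) having the most counts, while *Col24a1* was at 0. Of 14 other collagen genes 7 passed, and *Col25a1* (700 CPM), *Col23a1* (505 CPM), *Col26a1* (368 CPM) and *Col13a1* (287 CPM) had the most counts. Of the 276 counts of *Col25a1*, 241 lay in the 21 nuclei of sub-group 5 below, and the other fibroblast nuclei had 106 CPM.

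Among 15 proteoglycans, *Gpc6* (1994 against 301.4 CPM) had the most counts and *Fmod*, a collagen-binding proteoglycan, had 83.7 against 0.212 CPM. The matrix glycoprotein *Sned1* had 2217 against 23.7 CPM, followed by *Efemp1* (388 CPM), *Fbln1* (287 CPM) and *Tnxb* (277 CPM), and 11 of 27 genes of that list passed 10-fold. Of 25 matrix-processing genes 7 passed, among them *Timp3*, a metalloproteinase inhibitor (657 against 26.3 CPM), *Adamts2* (330 CPM) and *Pcolce* (98.9 against 0.718 CPM), which both act on procollagen. *Mmp16*, at 246 against 466 CPM, was lower than in other nuclei. Of 18 genes linked to TGF-beta and scarring 4 passed, and the receptor *Tgfbr3* (951 CPM) had the most counts, with *Smad3* (414 CPM), *Tgfbr1* (284 CPM) and *Tgfbr2* (185 CPM).

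Of 30 transporters 15 passed 10-fold, the rule gene *Slc6a20a* among them. *Slc7a11*, the cystine and glutamate exchanger, had 2674 against 19.4 CPM, while *Slc1a3*, a glutamate transporter, stayed below that ratio at 1834 against 208 CPM. Per kilobase of gene *Ptgds*, prostaglandin D synthase, had 438 CPM, *Slc6a20a* 69.0 CPM and *Ranbp3l* 43.5 CPM.

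In the retinoid list, 8 of 20 genes passed 10-fold, among them *Ptgds* (1461 against 5.97 CPM), which also binds retinoids, *Aldh1a2* (540 against 0.356 CPM), *Aldh1a1* (355 against 15.03 CPM) and the receptor *Rarb* (398 against 31.3 CPM). *Crabp1*, *Rbp4*, *Cyp26a1*, *Rxrg* and *Aldh1a3* were at 0. Of 40 secreted signals 13 passed, and *Ptn* (1492 CPM), *Bmp6* (1372 against 14.4 CPM), *Sema3a* (512 CPM) and *Slit2* (495 CPM) had the most counts. *Slit2*, an axon guidance ligand, was uneven, since it was above other nuclei in only 4 of the 10 wells, and 183 of its 195 counts lay in the 21 nuclei of sub-group 5 below (36.3 CPM in the other fibroblast nuclei). Of 29 growth factor receptors 6 passed, and *Fgfr2* (1743 CPM), *Lrp1* (720 CPM) and *Igf1r* (599 CPM) had the most counts beside *Tgfbr3*. Of 36 transcription factors 18 passed, with *Foxp1* (2484 CPM), *Tcf4* (2045 CPM), the rule gene *Bnc2* and *Foxp2* (1007 against 25.9 CPM) having the most counts. Per kilobase of gene other transcription factors stood first, *Zic2* at 41.3 CPM, *Zic1* at 39.3 CPM, *Foxd1* at 25.5 CPM and *Nr2f2* at 18.7 CPM.

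Cell junction, complement and interferon genes gave a mixed picture. Of 16 junction genes 5 passed, among them *Gjb6*, a gap junction gene (254 against 4.75 CPM), and *Cdh5* (203 against 3.71 CPM), which also had 338 CPM in endothelial nuclei, while *Cldn1* and *Cldn5* were at 0. The junction gene with the most counts was *Tjp1*, at 682 against 500 CPM. The scavenger receptor gene *Colec12* (1129 against 12.9 CPM) had the most counts of the complement list, in which 6 of 25 genes passed and *C5ar1*, the receptor blocked by PMX205, was at 0 counts. *C4b* had 39 counts (98.9 against 48.6 CPM), *C3* 1 count and *Serping1* 12 counts. By cell type, *C4b* ran from 7.12 CPM in neuronal to 487 CPM in oligodendrocyte and 566 CPM in astrocyte nuclei. The *C4b* counts were 2 and 1 in the WT-veh wells of at least 10 fibroblast nuclei, 0 and 1 in WT-PMX, 11, 4 and 9 in Arc-veh and 8, 0 and 0 in Arc-PMX, while the other nuclei had 4.12 to 19.1 CPM in WT wells and 39.9 to 143 CPM in Arc wells. *C4b* was too low in the fibroblast nuclei to be compared between groups. *C4b* and its near-identical copy *C4a* could share reads. Of 25 interferon and antigen presentation genes 4 passed 10-fold, beside 10.4% of all 14813 genes. Of the same 25, 20 were more than 2 times higher, as were 5780 of all 14813 genes. Of the 25, 0 were higher in each of the 10 wells, beside 617 (4.17%) of all 14813 genes. The list had 809 against 244 CPM in sum, with *Irf2* at 231 CPM and *Ifih1* at 60.9 against 4.07 CPM. None of 16 amyloid and lipid genes passed. *App*, the mouse precursor gene, had 743 against 621 CPM, *Abca1* 342 CPM and *Apoe* 96.4 against 27.5 CPM. Among other cell types, *App* ran from 273 CPM in astrocyte to 2077 CPM in endothelial nuclei. *Apoe* ran from 5.55 CPM in neuronal to 364 CPM in astrocyte nuclei.

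Some of the highest genes lay next to each other in the genome, a comparison chosen after the levels had been seen. How often genes of other levels lie this close was not computed, so the number of pairs is a description only. Among 256 genes of at least 100 CPM and more than 10 times the level of other nuclei, 12 pairs were less than 10000 bases apart or overlapped (GRCm38, gene models of GENCODE M21). They included *Slc6a13* and *Slc6a12* on chromosome 6 (5342 bases apart), *Slc22a8* and *Slc22a6* on chromosome 19 (6203 bases), *Slc47a2* and *Slc47a1* on chromosome 11 (540 bases), *Aox1* and *Aox3* on chromosome 1 (6716 bases), and the opposite-strand *Zic1* and *Zic4* on chromosome 9, which overlapped by 3398 bases. *Slc6a20a* overlapped the opposite-strand gene *Ccr9* by 447 bases, so the 152 CPM of *Ccr9* cannot be told apart from those of *Slc6a20a* if the counting ignored strand. *Nadk2* began 3924 bases beyond the end of *Ranbp3l* on the same strand.

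The collagen IV pair lay head to head. *Col4a6* and *Col4a5* ran in opposite directions from starts 1308 bases apart on chromosome X, were both higher than other nuclei in 10 of 10 wells and had medians over the wells of 603 and 582 CPM. The sequences immediately before the starts are shown because both genes were higher in the same nuclei of every well compared, and were read from RefSeq's promoter table on GRCm38.p6 in the direction of each gene, with CG pairs in capitals. The *Col4a5* stretch was on the plus strand, chrX:141475169-141475384, and the *Col4a6* stretch on the minus strand, chrX:141474077-141474326.
Col4a5: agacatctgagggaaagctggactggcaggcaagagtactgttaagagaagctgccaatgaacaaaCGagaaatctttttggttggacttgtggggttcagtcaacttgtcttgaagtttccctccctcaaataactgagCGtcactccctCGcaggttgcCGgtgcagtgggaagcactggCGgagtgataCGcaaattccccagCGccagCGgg
Col4a6: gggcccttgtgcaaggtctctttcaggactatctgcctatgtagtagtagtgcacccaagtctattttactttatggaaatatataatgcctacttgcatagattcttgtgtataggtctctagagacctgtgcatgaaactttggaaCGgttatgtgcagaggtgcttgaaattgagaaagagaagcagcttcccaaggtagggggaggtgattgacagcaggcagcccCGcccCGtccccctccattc
The first had 8 CG pairs in 216 bases and the second 3 in 250 bases, and 27025 promoters of 250 bases had a median of 6. The CG count is a description and was not linked to the levels of either gene.

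The 246 nuclei did not form one uniform set. Clustering without cell type names divided them into 6 sub-groups, described here by leading and marker genes and without a test. Sub-group 1 held 71 nuclei, led by *Gm30613*, *Ankfn1* and *Sidt1*, and had 913 CPM of *Aldh1a2*. Neuronal markers summed to 3138 CPM in it, 3859 CPM in sub-group 4 and 1383 to 2398 CPM in the others. Sub-group 2 held 55 nuclei and was shallowest (median 867 transcripts), with *Slc7a11* at 5429 CPM, *Ndnf* and *Lef1*, and with the mitochondrial ribosomal RNA genes *mt-Rnr2* and *mt-Rnr1* at the top, at 10078 and 4487 CPM. Sub-group 3 held 54 nuclei, led by *Gm30624* (523 CPM), *Pdzd2* (523 CPM) and *Pde8b* (1365 CPM), with *Slc1a2*, an astrocyte marker and glutamate transporter, next at 784 against 101 CPM in the other fibroblast nuclei. *Cemip*, a hyaluronan-degrading gene, had 3790 CPM there and the perivascular collagen *Col15a1* 421 CPM. In it, 5 of 6 pericyte markers were seen in at least 10% of nuclei (3107 CPM in sum, with 2033 CPM of astrocyte markers), and *Rgs5* (319 CPM) and *Abcc9* (465 CPM) were at 0 in all other fibroblast nuclei. Sub-group 4 held 38 nuclei with *Nnat* at 2553 CPM, *Ptgds* at 4439 CPM in all of its nuclei, *Lamc3* and *Col15a1* at 0, and *Atp13a5*, a pericyte marker, at 1828 CPM in 65.8% of nuclei (1481 CPM in 25.9% in sub-group 3).

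Sub-group 5 held 21 nuclei from 10 wells and had 471 CPM of the 8 fibroblast genes outside the rule. *Slc4a10*, a bicarbonate transporter, had 9395 CPM against 63.5 CPM in the other fibroblast nuclei, *Slc26a7*, an anion exchanger, had 1430 CPM against 0, and *Slc47a1* and *Slc47a2* had 1461 and 613 CPM. *Bnc2* stood at 4211 CPM against 632 CPM. *Ranbp3l* stood at 613 against 5037 CPM and *Slc6a20a* at 393 against 3552 CPM, each seen in 19.0% of these nuclei. *Slc6a13* and *Aldh1a2* were at 47.1 CPM each and *Lama1* at 47.1 CPM against 1461 CPM. Of the pial or perivascular marker list, 0 of 5 genes were seen in at least 10% of these nuclei. The leptomeningeal name is thus less sure for them. Of the dural marker list, 4 of 5 genes were seen in at least 10% of these nuclei, with 377 CPM in sum. Of the arachnoid list it was 1 of 6, with 1587 CPM in sum, most of it *Slc47a1*, and *Cdh1*, a marker of the arachnoid barrier, was seen in 38.1% (236 against 27.2 CPM). Astrocyte markers summed to 2812 CPM, with 2 of 6 seen in at least 10% of nuclei. In this sub-group the rule genes made up a median of 0.785% of transcripts. The well with most of it was Arc-PMX F1, with 5 nuclei, the same well in which *Slc47a1* was highest. Sub-group 6 held 7 nuclei in which *Mbp* (1632 CPM) and *Mobp* (1071 CPM), both myelin genes, were among the leading genes and all 6 oligodendrocyte markers reached 10% of nuclei. Wells of all 4 groups contributed to sub-groups 1 to 5, and sub-group 6 held none from Arc-PMX.

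**Figure D4:**
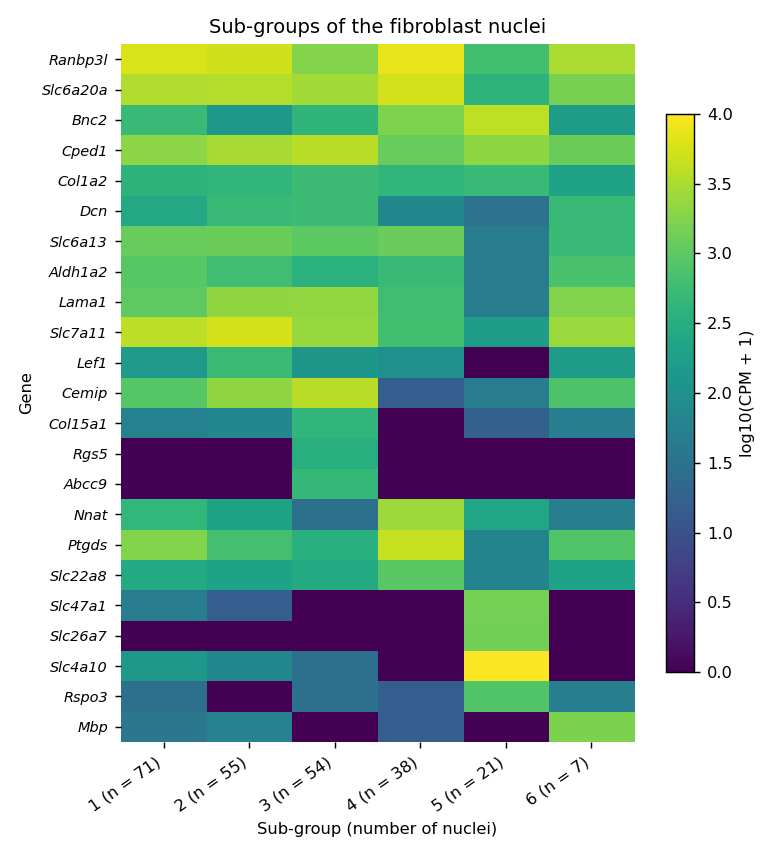
Colour gives the level (log10 of CPM + 1) of leading and marker genes, in rows, in the 6 sub-groups of the leptomeningeal fibroblast nuclei, in columns with the number of nuclei. *Slc26a7* is at 1430 CPM in sub-group 5 and 0 in the other sub-groups, and *Rgs5* and *Abcc9* are seen in sub-group 3 alone.

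Genes were compared between groups over summed counts of the 10 wells with at least 10 fibroblast nuclei: WT-veh and WT-PMX gave 2 wells each, Arc-veh and Arc-PMX 3 each. The 4 WT wells were all male, and of the 3 female wells 1 was in Arc-veh and 2 in Arc-PMX, so that sex, a term of the fit, was partly bound up with group. The 10 wells held 11904 to 65484 transcripts, and 1170 genes passed the filter on low counts, so genes outside that set were not compared. Replicate correlation was 0.412 to 0.773 within groups and 0.408 to 0.821 between groups. The biological coefficient of variation was 0.378, and edgeR's quasi-likelihood test (Benjamini-Hochberg adjusted p under 0.05) is quoted throughout.

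**Figure D5:**
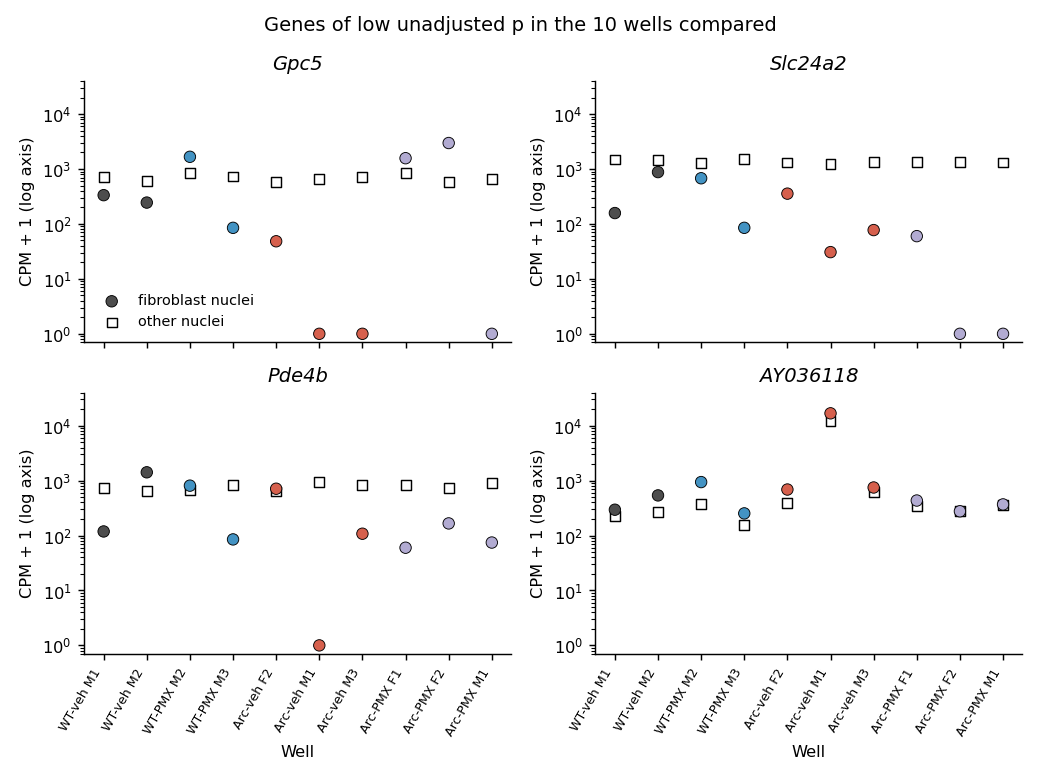
Levels (CPM + 1, log axis) of *Gpc5*, *Slc24a2*, *Pde4b* and *AY036118* in the 10 wells compared, with filled circles for leptomeningeal fibroblast nuclei, coloured by group, and open squares for the other nuclei of the same well. The circles of *Gpc5* lie at 0 CPM in 3 wells while its squares stay alike, and *AY036118* is high in both kinds of nuclei of Arc-veh M1.

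Of the 7 comparisons of genotype and PMX205, none called a gene (0 of 1170 genes, or 0%, in each), and the number with an unadjusted p under 0.05 ran from 21 to 70. DESeq2 called 1 gene in 3 of the 7 comparisons, a fit with no filter on low counts up to 10, and fits without 1 sublibrary up to 55, most of these with groups of a single well. In Arc-veh against WT-veh 29 genes had an unadjusted p under 0.05 and *Gpc5*, a heparan sulphate proteoglycan gene, had the smallest. Its counts were 17 and 5 in WT-veh and 2, 0 and 0 in Arc-veh. In WT-veh M1 the 17 counts came from 2 of 43 nuclei, and 1 nucleus gave 13 of them. On edgeR's scale the groups had 503 ± 125 CPM (SD over 2 wells) and 29.6 ± 51.3 CPM (SD over 3 wells). That scale takes only the 1170 tested genes as the total, so its values are higher than the CPM given elsewhere. The fitted log2 fold change was -8.77 ± 1.66 (SE, adjusted p = 0.139), a larger difference than that of these means. Here and below, the SE was worked back from the fold change and the F value of the test, and was not estimated by the fit itself. It was -3.99 without the sex covariate and -3.90 with at least 5 nuclei per well (adjusted p = 0.994 for each). Over 31 alternatives the adjusted p ran from 3.26e-07 to 0.9988 and 9 were under the threshold, among them no filter on low counts, DESeq2 (adjusted p = 0.00145) and leaving out WT-PMX M2 (adjusted p = 0.00567), WT-PMX M3 (0.00571) or Arc-PMX F1 (0.0305).

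In the PMX205 groups *Gpc5* had 64 and 1 counts in WT-PMX and 80, 54 and 0 in Arc-PMX, so that both held wells with many and wells with almost none. The 223 counts of the 10 wells came from 16 nuclei, and 1 nucleus gave 62 of the 64 in WT-PMX M2 and another all 54 in Arc-PMX F2. Mixed nuclei held 82.1% of the counts, but *Gpc5* is itself among the astrocyte markers that define them, and astrocyte nuclei had 7987 CPM of it. Summed astrocyte markers ran from 549 to 634 CPM in WT-veh wells, 840 to 2217 in WT-PMX, 267 to 687 in Arc-veh and 73.5 to 5286 in Arc-PMX, with *Aqp4* at 0. Without the mixed nuclei the log2 fold change of *Gpc5* was -6.99 for Arc-veh against WT-veh, -4.77 for Arctic against WT, 2.36 for Arc-PMX against Arc-veh and 0.14 for PMX205 against water, with adjusted p from 0.358 to 0.979.

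Next to *Gpc5* in Arc-veh against WT-veh came *AY036118* (log2 fold change 4.14 ± 1.11, adjusted p = 0.9996), with 565 of the 740 counts of the 10 wells in Arc-veh M1. *Bcl2*, an apoptosis regulator, had 4 and 1 counts in WT-veh against 8, 16 and 16 in Arc-veh (2.28 ± 0.69, adjusted p = 0.9996).

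For PMX205 in Arctic mice, 70 genes had an unadjusted p under 0.05, with *Gpc5* (5.15 ± 1.26), *Ncam1*, a cell adhesion gene (-2.65 ± 0.69), and *Pitpnc1* (1.69 ± 0.46) at the smallest p and adjusted p = 0.783 for each. The value of *Gpc5* was 1.38 with the rule at 0.25% and 0 without Arc-veh F2, and its adjusted p ran from 3.19e-06 to 1 over 29 alternatives, 7 of them under the threshold. *Pitpnc1*, a lipid transfer gene, had 13, 10 and 19 counts in Arc-veh and 60, 11 and 16 in Arc-PMX, where 1 nucleus of Arc-PMX F1 gave 39 of the 60. In WT-PMX against WT-veh, 21 genes had an unadjusted p under 0.05, led by *Pnisr* (-1.91), *Etv6* (-2.25) and *Lars2* (2.09), each with adjusted p = 0.997. *Lars2* had 14 and 13 counts in WT-veh and 112 and 7 in WT-PMX M2 and M3. Its level in the other nuclei of WT-PMX M2 was also high, at 1220 CPM against 327 and 271 CPM in the WT-veh wells M1 and M2. Arc-PMX against WT-veh gave 51 genes of an unadjusted p under 0.05, led by *Slc24a2* (-5.90) and *Pde4b* (-5.48), and then *Ep300* (3.04), with adjusted p = 0.761. On edgeR's scale *Pde4b* had 209 and 2404 CPM in WT-veh and 108, 300 and 121 CPM in Arc-PMX, which overlapped. *Slc24a2* had 278 and 1492 CPM against 108, 0 and 0 CPM. For both genes the fitted change was larger than that of the group means. Of the counts of *Slc24a2* and *Pde4b* in the 10 wells, 50.6% and 61.3% sat in mixed nuclei, and without these nuclei neither gene passed the filter on low counts. Summed oligodendrocyte markers ran from 78.4 to 2977 CPM in WT-veh wells, 84.0 to 1487 in WT-PMX, 76.4 to 877 in Arc-veh and 55.1 to 73.5 in Arc-PMX. For the difference between the PMX205 effects in the genotypes 35 genes did, with *Ncam1* (-3.71), *Slc6a12* (-2.83) and *Adamts12* (1.82) at the smallest p and adjusted p = 0.998.

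Over both treatments, Arctic against WT gave 46 genes of an unadjusted p under 0.05, and over both genotypes PMX205 against water gave 64. *Gpc5* had the smallest p in both (-7.05, adjusted p = 0.242, and 3.43, adjusted p = 0.511). For Arctic against WT its mean levels did not follow the sign of the fit. On edgeR's scale they were 503 CPM (water) and 1513 CPM (PMX205) among WT wells and 29.6 CPM and 2762 CPM among Arctic wells. The log2 fold change was -1.64 without the sex covariate (adjusted p = 0.9998). For PMX205 against water it was 1.58 without WT-PMX M2 and 0.86 without Arc-veh F2. Over 29 alternatives each, the adjusted p ran from 7.94e-06 to 0.9998 for genotype and from 4.28e-07 to 0.9997 for PMX205. *Nadk2* (-2.03) and *Ppp2r2b* (-1.95) came next for PMX205, each with adjusted p = 0.840. *Nadk2*, a mitochondrial NAD kinase, had 28, 2, 7 and 0 counts in the 4 WT wells, 28, 10 and 27 in Arc-veh and 7, 3 and 0 in Arc-PMX.

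As a check of the labels, *Xist* was the only gene called between females and males (1 of 1170 genes, 0.0855%, log2 fold change 6.18 ± 0.82, adjusted p = 0.00224). The call was lost without Arc-veh F2 (adjusted p = 0.214). On edgeR's scale, the level of *App* in WT-veh was 1231 ± 18.1 CPM (SD over 2 wells) and that in Arc-veh was 1323 ± 211 CPM (SD over 3 wells) (log2 fold change 0.06 ± 0.46, adjusted p = 0.9996). *Igf2*, an insulin-like growth factor gene of the meninges, had a log2 fold change of 0.11 ± 0.64 (adjusted p = 0.9996).

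No list gave a called gene in any of the comparisons, and only 1 to 16 genes of each could be tested, rule genes included. In Arc-veh against WT-veh, 605 of all 1170 genes had a positive log2 fold change (median 0.02). Of the 5 lists with at least 8 genes tested, 9 of 16 transcription factors (median 0.26), 11 of 15 transporters (median 0.28), 11 of 13 growth factor receptors (median 0.36), 6 of 11 secreted signals (median 0.05) and 5 of 8 basement membrane genes (median 0.07) were positive. For PMX205 in Arctic mice the same lists had 8, 8, 6, 4 and 5 positive genes and medians of 0.06, 0.10, -0.15, -0.52 and 0.23, beside a median of 0.02 over all genes.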

How the data were processed

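Per the labels and the study's methods, nuclei were barcoded in wells in successive split-pool rounds, the first during reverse transcription, and the authors used Parse's split-pipe and the mm10 genome to count unique transcripts, introns included. The submitters' processing notes also name bcl2fastq. Deposited values are raw counts per barcode and gene for 7 sublibraries, 1516119 barcodes and 55536 genes, all of which match GENCODE M21. First-round wells were joined to the authors' sample sheet. The well, 1 mouse, was the replicate, and counts were summed over sublibraries. Nuclei needed more than 300 and fewer than 50000 transcripts and more than 400 genes. Those over 1% mitochondrial transcripts and Scrublet doublets (scanpy 1.11.5, score above 0.25) were kept and removed in alternatives.

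The members, gene lists, marker lists and tests were chosen with earlier results of these data known. Wells with at least 10 members entered an edgeR quasi-likelihood fit (edgeR 4.0.16 in R 4.3.3, tested on simulated data) with terms for group and sex, TMM scaling and filterByExpr, and p-values were adjusted over all genes by Benjamini-Hochberg with a threshold of 0.05. Shares were compared by two-sided exact permutation over wells, or 100000 resamples for 12 against 12 and for correlations, with 6 comparisons adjusted together. Sub-groups are Leiden clusters (1000 variable genes, 15 components, 15 neighbours, resolution 0.6). Named genes are the genes called per comparison or, with none, the 3 of smallest unadjusted p. They also include the 6 rule genes, the 4 highest of each list and the 20 of largest ratio among genes of at least 100 CPM. *C4b*, *C3*, *Serping1*, *App*, *Apoe*, *Igf2* and *Xist* were added, with marker genes for sub-groups. Some genes that this rule names are not reported here. Alternatives were DESeq2 1.42.0, other scaling, filters, rules and minimum nuclei, a replicate block, and each well or sublibrary left out. A test of the genotype effect against vascular nuclei was not run, since no gene was called.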

Additional observations from a re-analysis of the deposited data

Results flagged for a closer look

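The level of *AY036118*, a transcript linked to ribosomal RNA, was highest in 1 well. In Arc-veh M1 the nuclei that are not leptomeningeal fibroblasts had 12111 CPM, a gap to the next well larger than Dixon's test allows for 6 wells. The next Arc-veh well, F3, had 3873 CPM and the lowest 333 CPM. In the other groups the highest well had 973 CPM. The fibroblast nuclei of Arc-veh M1 held 565 of the 773 counts that all fibroblast nuclei had. The gene had been picked for its small unadjusted p in those nuclei, with most counts in this well, so Dixon's test was not independent of that choice. Without such a choice the test picks out about 1 in 20 groups by chance. Endothelial nuclei of all wells had 20731 CPM of it and pericyte nuclei 7466 CPM. Its part in the comparison of Arc-veh with WT-veh was not tested beyond leaving out wells.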

How the results depend on the processing

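The share of fibroblast nuclei passed no adjusted threshold in any of 41 settings (smallest adjusted p = 0.130). WT-PMX against WT-veh changed direction with a rule on the 8 other fibroblast genes (0.0139 points) and without WT-veh replicate 4 (M1), with a leave-one-out range of -0.283 to 0.00833 points.

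Numbers of genes called moved as follows, and the cause was not tested. For Arc against WT there was 1 with DESeq2, 10 with no filter and 1 with the replicate block. For Arc-veh against WT-veh there was 1 with DESeq2, 1 with at least 20 nuclei per well, 2 with no filter and 2 with the block. For Arc-PMX against Arc-veh there was 1 with no filter and 2 with the block, for Arc-PMX against WT-veh 3 with no filter, and for the difference between the PMX205 effects 1 with the block. For PMX205 against water there was 1 with DESeq2, 1 with at least 5 nuclei per well, 1 with no filter and 1 with the block. With at least 20 nuclei, 4 wells were left, 1 of them WT-veh (M1) and 1 of them female, and each lone well was assumed to vary like the others. That fit's call for genotype was *AY036118*. For sex, 12 were called with at least 20 nuclei, 2 with at least 5, 2 with no filter and 0 with a rule at 1%, where *Xist* had an adjusted p of 0.196.

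Leaving out 1 well or 1 sublibrary gave 0 to 44 calls for Arc against WT (at most 6 by well, without WT-veh M1), 0 to 55 for Arc-PMX against Arc-veh (0 by well), 0 to 48 for Arc-PMX against WT-veh (3 without WT-veh M1), 0 to 10 for Arc-veh against WT-veh, 0 to 40 for PMX205 against water, 0 to 31 for the difference between PMX205 effects, 0 to 2 for WT-PMX against WT-veh and 0 to 14 for sex. The highest numbers came without sublibrary 3 or 6, except for WT-PMX against WT-veh (without 4) and sex (without 3 or 4, 14 each). Without a sublibrary, 7 to 9 wells still had 10 nuclei, and Arc-PMX or WT-PMX fell to 1 well in most of these fits, whose lone sample was assumed to vary like the other groups. A fit with 1 nucleus per well, chosen after seeing the data, tested 80 genes and called 1, *Xist* between the sexes.

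*App* in Arc-veh against WT-veh (log2 fold change 0.06) was -0.0427 without nuclei over 1% mitochondrial transcripts and -0.0552 without doublets, with a leave-one-out range of -0.22 to 0.43. *Igf2* (0.11) was -0.0661, -0.0829, -0.23 without mixed nuclei and -0.25 with the block, with a leave-one-out range of -0.24 to 0.43. The block called *Gpc5* in Arc-veh against WT-veh (-9.08, adjusted p = 5.25e-06) and in Arc-PMX against Arc-veh (5.504, adjusted p = 0.000126). Whether the replicate numbers pair the wells could not be settled. Deviations from the group mean correlated at -0.19 to 0.22 for same-numbered wells of a sex (6 pairs) and at -0.29 to 0.27 for other pairs. In a group of 2 wells, as in WT-veh and WT-PMX, the deviations mirror each other, so these values cannot show that pairing is absent. In these summed counts of 11904 to 65484 transcripts only 1170 genes could be compared, so genes below that depth were not tested.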

Other observations

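The wells of CD11b-selected single cells held 1 barcode that met the fibroblast rule among 2450 passing the filters for nuclei. A rule of the same form on the 8 other fibroblast genes found 16 nuclei, 14 of them among the 246. At 1% of transcripts the rule on the 6 genes found 150 nuclei and at 0.25% it found 286.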
